A study of Mus musculus with 20 samples.

Results

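The regions described here are the genomic intervals called as bound by pRb in growth-arrested mouse embryonic fibroblasts, compared between WT cells and cells labelled SS. Every interval, or peak, of the 2 arrested pRb lists on chromosomes 1 to 19 was included, 401665 peaks in WT and 617903 in SS cells. These 1019568 peaks were drawn from 4480164 peaks in the 10 lists of the series, which also covers pRb in proliferating cells, the histone mark H3K27me3 and the methyltransferase Ezh2. Peaks on X (22883 in WT and 32278 in SS cells) and Y (40 and 202) were left aside.

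Both groups consisted of primary fibroblasts of C57BL/6 embryos of stage E13.5, grown in 10% serum to passage 4. One label field describes the arrested cells as arrested by confluence, and another gives 0.1% serum for 72 h. The labels set SS against WT without spelling out the allele behind SS, and do not state how many embryos were used. The pRb label lists 5 antibodies without saying how they were combined. A label of fibroblast cannot be checked against marker genes in a list of peak positions. Each group was 1 library with no replicate, so no test across samples was possible and differences between libraries and between genotypes cannot be told apart. Sequencing depth is unknown.

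The retinoblastoma protein pRb is a tumour suppressor of the pocket protein family. It binds E2F transcription factors and, with chromatin regulators that it recruits, holds cell-cycle genes silent when cells leave the cycle. It has no sequence-specific DNA-binding domain of its own and reaches chromatin through partner proteins. In chromatin immunoprecipitation followed by sequencing, DNA cross-linked to a protein is pulled down with an antibody, and stretches where reads pile up are called as peaks. Coordinates are those of the mm9 build, counted from 1.

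Arrested SS cells had more pRb peaks than arrested WT cells, and the peaks were longer and lay closer together. The SS list held 1.54 times as many autosomal peaks and covered 134.8 Mb against 75.9 Mb in WT, a ratio of 1.78. That was 5.61% of the autosomal sequence in SS and 3.16% in WT cells, out of 2402 Mb in 100 kb bins where any of the 10 lists had a peak. Both lists consisted mostly of short intervals. In WT, 301087 of the 401665 peaks were under 200 bp, and in SS 434898 of 617903 were.

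The shortest length in the list was 136 bp in WT and 148 bp in SS cells. It was taken by 39.1% of WT peaks and 18.9% of SS peaks. Median length was 145 bp in WT and 166 bp in SS, and the 90th percentile was 340 bp and 393 bp. The lists differed more in long peaks than in the list as a whole. Peaks of at least 500 bp numbered 3508 in WT and 14481 in SS cells, which is 0.873% and 2.34% of the list. Peaks of at least 1000 bp numbered 40 and 221, and those of at least 2000 bp numbered 5 and 21, so the SS to WT ratio was 4.13, 5.53 and 4.2.

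Each peak carries a score given by the authors, whose unit is not stated, and it was used only to rank peaks within their own list. Score and length ran opposite ways, with a Spearman's rho across peaks of -0.371 in WT and -0.303 in SS cells. The median score of WT peaks under 150 bp was 109.65, against 55.47 for those of 300 to under 500 bp. In SS the medians were 119.27 under 150 bp and 65.01 for peaks of 300 to under 500 bp. Among the shortest peaks the score took few values. In WT, 29.7% of the 136 bp peaks had a score of exactly 86.41, 19.1% had 109.65 and 11.7% had 134.18, and 6 values accounted for 75.1% of them. In SS, 23.4% of the 148 bp peaks had 82.12 and 17.3% had 100.21, and 6 values accounted for 72.1%. In peaks of at least 300 bp the 6 commonest scores accounted for 3.60% in WT and 1.22% in SS.

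**Figure D1:**
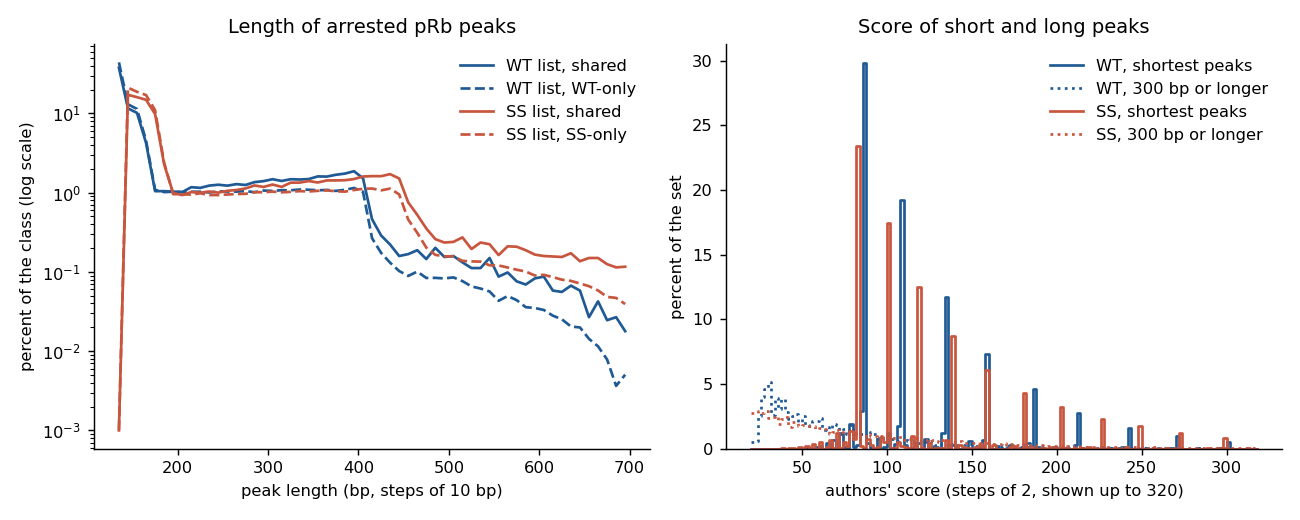
The left panel plots the share of each class of peaks (percent, log scale) by peak length in steps of 10 bp, for shared (solid) and unshared (dashed) peaks of the WT (blue) and SS (red) lists. The right panel plots the share of peaks by the authors' score for the shortest peaks (solid) and for peaks of at least 300 bp (dotted); the shortest peaks sit on separate steps, led by 86.41 in WT and 82.12 in SS.

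Most WT peaks had no counterpart in SS cells, and most SS peaks had none in WT cells. Counting an overlap of at least 1 bp as shared, 44768 WT peaks were shared (11.1%, 95% Wilson interval 11.0 to 11.2) and 356897 were WT-only. From the other side, 44770 SS peaks were shared (7.25%, 7.18 to 7.31) and 573133 were SS-only. These intervals cover counting error over peaks, and neighbouring peaks are not independent. Under a reciprocal overlap of 50%, 3.56% of WT and 2.31% of SS peaks were shared.

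Unshared peaks were usually still close to a peak of the other list, since both lists are dense. The nearest SS peak lay a median of 1196 bp from a WT-only peak, and 44.0% of WT-only peaks had one within 1 kb. For SS-only peaks the nearest WT peak lay a median of 1918 bp away, and 30.5% had one within 1 kb. Within 10 kb the shares were 99.5% of WT-only and 96.8% of SS-only peaks.

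Shared positions were slightly more frequent than the coverage of the lists would give if spread evenly. Of WT peak bases, 6.25% lay in SS peaks, 1.11 times the 5.61% of occupied sequence that SS peaks covered. A second measure compared peak centres with their own surroundings. Centres of SS peaks lay within 100 bp of a WT centre at a rate of 284.5 per kb per 1000 WT peaks, against 262.9 at 2 to 5 kb from it, a ratio of 1.08 (95% interval 1.07 to 1.10, counting error only). The same measures for pRb in proliferating WT against SS cells were 1.45 for bases and 1.32 (1.23 to 1.41) for centres. For Ezh2 they were 1.26 and 1.12 (1.11 to 1.13). Between arrested pRb peaks and peaks of other lists, the base ratio ranged from 1.07 to 1.19, which is the range that holds the WT and SS comparison itself. These ratios come from single lists of different length and their differences were not tested.

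**Figure D2:**
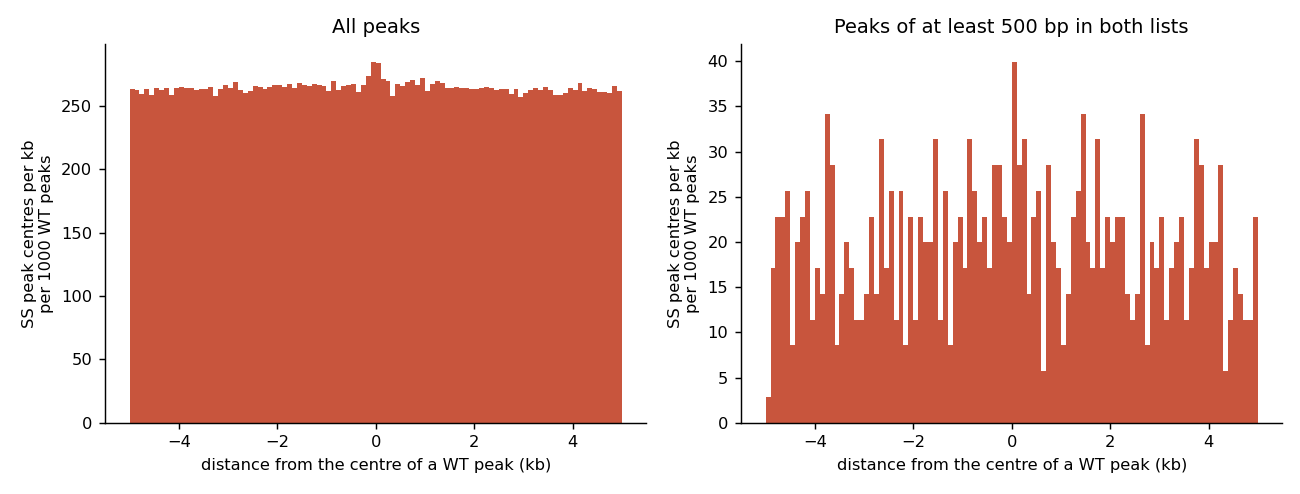
Rate of SS peak centres per kb and per 1000 WT peaks (vertical axes) by distance from the centre of a WT peak (kb, in steps of 100 bp), for all peaks and for peaks of at least 500 bp in both lists. The all-peak profile is flat near 262.9 with a low central rise to 284.5, and the profile of long peaks rests on 21 centres within 100 bp.

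The overlaps that did occur were loose. The 45007 overlapping pairs shared a median of 104 bp, and their centres lay a median of 98.5 bp apart. Centre distances were spread evenly: 25.5% of pairs had centres within 50 bp, 25.4% between 50 and 100 bp, 23.8% between 100 and 150 bp and 25.3% farther apart. In 68.5% of pairs the SS peak was the longer, with a median length ratio of 1.125. Across pairs, which share only a position, Spearman's rho was 0.0327 for length and 0.0740 for score. In the 128 pairs with both peaks of at least 500 bp the shared stretch had a median of 444.5 bp, rho was 0.359 for length and 0.229 for score.

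Shared peaks were longer than unshared ones at the upper end of the length range. Their median length was 150 bp against 144 bp for WT-only peaks, and 171 bp against 165 bp for SS-only peaks. The upper quartile was 270 bp for shared and 190 bp for WT-only peaks, and 326 bp for shared and 240 bp for SS-only peaks. Peaks of at least 500 bp made up 1.74% of shared and 0.765% of WT-only peaks, and 4.52% of shared and 2.17% of SS-only peaks. A longer peak has more bases in which to meet another, so length enters the definition of sharing. Under the reciprocal overlap the difference in median length from SS-only peaks turned from 6 bp to -1 bp. The difference from WT-only peaks stayed, at 5 bp.

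The shared fraction increased with length in both lists, and the ratio of shared bases to even coverage was highest in the longest peaks, which are few. Of WT peaks under 150 bp, 9.76% were shared, and of those of 500 to under 1000 bp 21.9% were. For SS, 5.97% of peaks under 150 bp were shared, and 1931 of 14260 at 500 to under 1000 bp. Of 35 WT peaks of 1000 to under 2000 bp, 16 were shared (45.7%, 30.5 to 61.8), and of 200 such SS peaks 79 were (39.5%, 33.0 to 46.4). Of the 5 WT peaks of 2000 bp or more, 3 were shared, and of the 21 in SS, 13 were. Counting bases rather than peaks takes the length out. The ratio of shared bases to even coverage was 1.07 for WT peaks under 150 bp, 1.42 at 500 to under 1000 bp, 5.27 at 1000 to under 2000 bp and 7.50 beyond. For SS peaks it was 1.06, 1.25, 4.32 and 8.59 in the same classes.

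Score did not mark out the shared peaks in the same way. In WT, 14.6% of the lowest-scoring decile of peaks were shared and 10.5% of the highest-scoring decile. In SS the shares were 9.08% and 6.61%. Long peaks are frequent among low scores, and among peaks under 200 bp the shares in the lowest and highest decile were 12.9% and 10.1% in WT and 7.29% and 6.16% in SS. Among the 1000 highest-scoring peaks 95 were shared in WT and 65 in SS, or 9.5% and 6.5%, against 11.1% and 7.25% of the whole lists. Of the 10 SS peaks of highest score 7 were shared (70%, 39.7 to 89.2), and of the 10 in WT 2 were (20%, 5.67 to 50.98). These intervals overlap, and among the top 100 the counts were 11 in SS and 10 in WT. Median score was 97.86 for shared against 107.86 for WT-only peaks, and 109.62 for shared against 119.27 for SS-only peaks. Under the reciprocal overlap the difference in median score from SS-only peaks was 0, and that from WT-only peaks was -8.94.

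**Figure D3:**
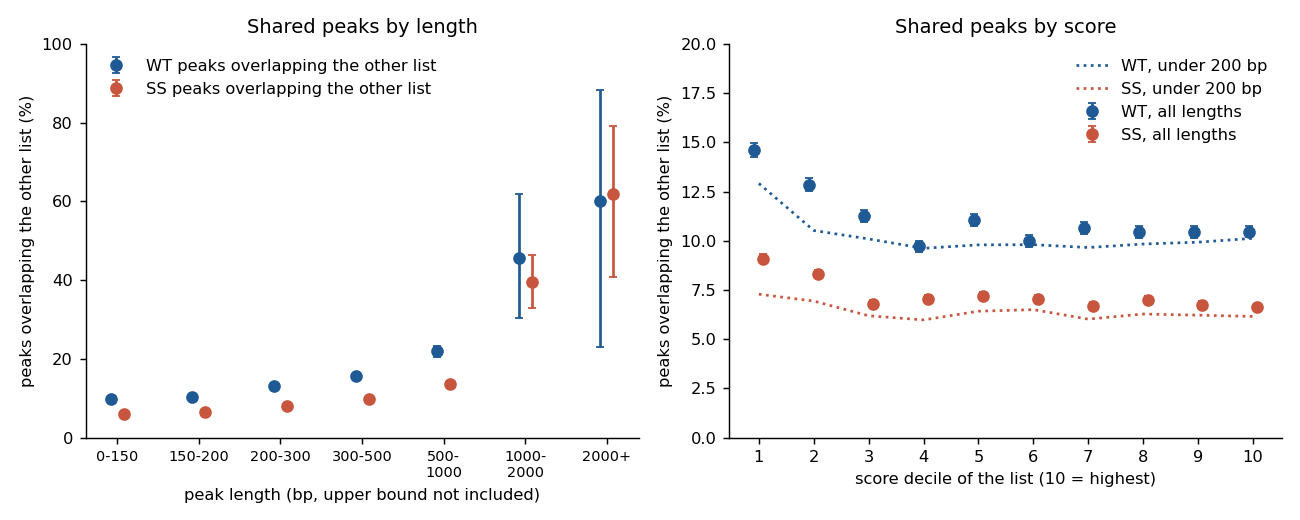
Share of peaks that overlap a peak of the other list (percent) by peak length (left) and by score decile of the list (right), for WT (blue) and SS (red) peaks. Bars are 95% Wilson intervals over peaks and dotted lines give peaks under 200 bp; the share climbs to 60.0% and 61.9% in the longest class, while it is highest in the lowest-scoring decile (14.6% and 9.08%).

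Among shared peaks, the interval that scored highest in both lists was the longest shared one, 4813 bp in WT at chr1:24618291-24623103 with a score of 3100 and 4839 bp in SS with the same score. The value 3100 was the maximum of both lists, and 3 SS peaks were tied at it. Whether it is a ceiling of the score is not stated. The interval at chr2:22442711-22445814 in SS, 3104 bp long with a score of 3100, matched a WT peak of 3056 bp within it that scored 541.32 and ranked 295. The third SS peak at 3100 was 431 bp long, at chr6:103598955-103599385, and overlapped a WT peak of 644 bp with a score of 1014.74. The WT shared peak next in score was a short one, 147 bp at chr1:67265469-67265615 with 662.54, whose SS counterpart scored 249.8 and ranked 67062 of its list.

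The unshared peaks of highest score were all short. The WT-only peaks at chr11:24109216-24109371, chr15:9395685-9395840 and chr16:15636258-15636412 were 155 to 156 bp long and scored 897.93 each. Their nearest SS peaks lay 1122, 51 and 786 bp away. The leading SS-only peak, at chr6:89422434-89422595, scored 1652.95, and those at chr1:63074772-63074933 and chr6:141980577-141980738 scored 1171.92. All 3 were 162 bp long, and their nearest WT peaks lay 571, 129 and 1262 bp away.

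The remaining peaks among the 3 longest shared ones of each list had low scores and met peaks of several other lists. The WT peak at chr5:15197778-15200216 was 2439 bp long, scored 58.72 and overlapped peaks in 7 of the 8 other lists. The SS peak at chr1:85269767-85274044 was 4278 bp long, scored 60.01, met 3 WT peaks and peaks in 5 other lists. The SS peak at chr5:14987334-14990440, 3107 bp with a score of 26.87, met 1 WT peak and peaks in 7 other lists. The longest unshared peaks, picked after their values were seen, were one of 5989 bp in WT at chr17:39979867-39985855 with a score of 20.28 and one of 3796 bp in SS at chr5:15041447-15045242 with a score of 54.78. Each overlapped peaks in 6 other lists.

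Long peaks gathered on a few chromosomes. Of the 40 WT peaks of at least 1000 bp, 30 lay on chromosomes 1, 5, 8 and 11 (75%). Of the 221 in SS, 147 lay on chromosomes 1, 5, 8 and 4 (66.5%), and 109 fell into 19 bins of 100 kb that held at least 3 each. These chromosomes were picked as those with the most such peaks. For all lengths, chromosomes 1, 5, 8 and 11 held 31983, 25349, 21195 and 21036 of the 401665 WT peaks. Chromosomes 1, 5, 8 and 4 held 49983, 37385, 32666 and 39014 of the 617903 SS peaks. Of the 40 WT peaks, 25% (14.2 to 40.2) met an SS peak of at least 1000 bp. By bases, 24.0% of these WT peaks lay in such SS peaks, which covered 0.0129% of occupied sequence. The long peaks that met formed 12 pairs, 4 on chromosome 1, 4 on chromosome 5, 2 on chromosome 8 and 1 each on chromosomes 2 and 11. The shared stretch was only 2 bp in 1 pair on chromosome 5 and 21 bp in 1 pair on chromosome 1.

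Overlap with the 8 other lists was compared for shared and unshared peaks within length classes. The class of at least 500 bp is open-ended and not matched for length. In it, 19 of 779 shared and 21 of 2729 WT-only peaks reached 1000 bp, and 92 of 2023 shared and 129 of 12458 SS-only peaks. Among peaks under 200 bp, 3.40% of shared and 3.20% of WT-only peaks met peaks in at least 4 other lists, and 3.67% of shared and 3.10% of SS-only peaks did. Among peaks of at least 500 bp the shares were 15.5% (13.2 to 18.2) of shared and 8.94% (7.93 to 10.1) of WT-only peaks. In SS they were 11.9% (10.5 to 13.3) of shared and 7.35% (6.91 to 7.82) of SS-only peaks. The SS list of Ezh2, which methylates histone H3 within a Polycomb complex, gave the highest overlaps of single lists in this class, and is also the longest of the 8 by peak number. Its peaks met 38.8% of shared and 31.2% of WT-only long peaks, and 37.3% of shared and 31.7% of SS-only long peaks. The WT Ezh2 list met 21.9% of WT-only and 23.2% of SS-only long peaks, below the arrested WT H3K27me3 list with 23.6% and 24.1%. Among shared long peaks the order was reversed. The WT Ezh2 list met 29.4% of those in WT and 31.1% in SS, and the arrested WT H3K27me3 list 27.2% and 29.6%. Over all lengths the SS Ezh2 list met 18.8% of shared and 16.5% of SS-only peaks.

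The excess of SS peaks was spread over all 19 chromosomes. The ratio of SS to WT peak number ranged from 1.47 on chromosome 11 to 1.59 on chromosome 3, and the ratio of covered length from 1.69 on chromosome 11 to 1.85 on chromosome 3. Peak density ranged from 159 to 177 per Mb in WT, lowest on chromosome 14 and highest on chromosome 11. In SS it ranged from 248 per Mb on chromosome 12 to 264 on chromosome 9. The density ranges of the lists did not overlap. Shared WT peaks ranged from 10.7% on chromosome 11 to 11.9% on chromosome 17, and shared SS peaks from 6.96% on chromosome 10 to 7.68% on chromosome 17. Median length stayed within 144 to 146 bp in WT and 165 to 167 bp in SS on every autosome. Chromosome 7 had the lowest median score in both lists, 97.86 and 109.62.

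**Figure D4:**
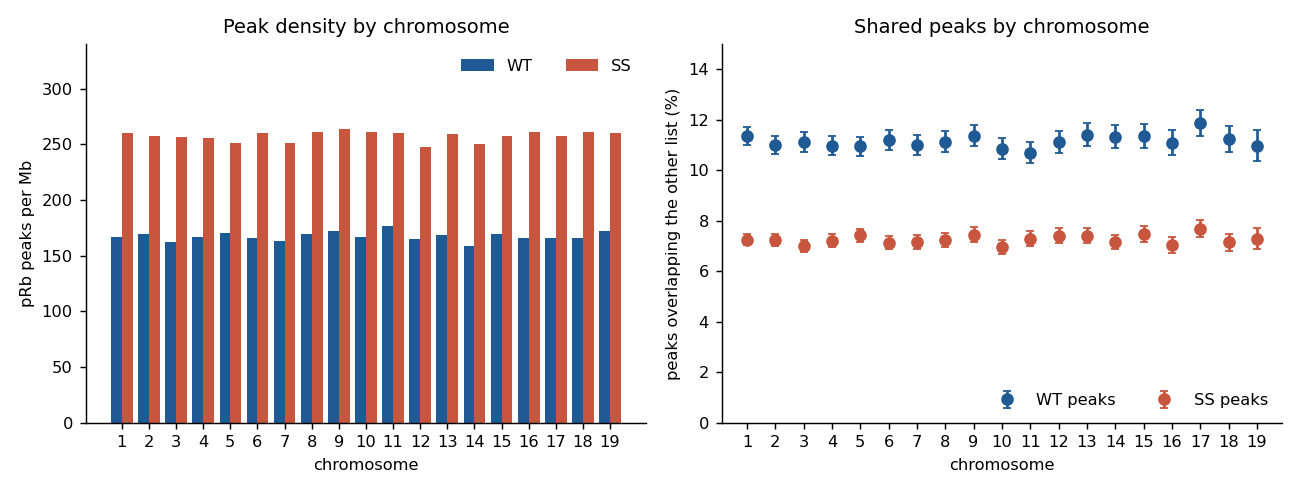
The left panel gives arrested pRb peaks per Mb of occupied sequence by chromosome for WT (blue) and SS (red), as bars from 0. The right panel gives the share of peaks that overlap the other list (percent) with 95% Wilson intervals; WT values lie between 10.7% and 11.9% and SS values between 6.96% and 7.68%.

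Within each list, SS peaks were spaced more closely. The median gap to the next peak was 3925 bp in WT and 2500 bp in SS cells. A neighbour of the same list lay within 1 kb of 27.9% of WT peaks and 40.6% of SS peaks. When the SS list was cut to the length of the WT list by taking its highest scores, the share was 28.7% and the median gap 3843 bp, so the difference in spacing of 12.8 percentage points came to 0.827. Shared peaks had a close neighbour about as often as unshared ones, 28.2% against 27.8% in WT and 40.9% against 40.6% in SS.

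Groups of peaks less than 1 kb apart were counted as clusters. WT had 51192 clusters of 2 or more peaks and SS had 108848, and 72.1% of WT and 59.4% of SS peaks stood alone. Clusters of 5 to 9 peaks numbered 217 in WT and 1452 in SS. SS had 8 clusters of 10 or more peaks and WT had none, its largest holding 8. Of the 217 WT clusters of at least 5 peaks, 5 met one of the 1460 such clusters in SS. Those SS clusters covered 0.220% of occupied sequence, and the ratio of shared bases to even coverage was 4.20, against 1.12 for clusters of at least 2 peaks.

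The largest WT cluster, of 8 peaks at chr4:146792575-146798124, held 3 SS peaks, which covered 36.1% of it, and 4 of its peaks were shared. The next, of 7 peaks at chr1:20579126-20583465, held 1 SS peak and no shared peak. That of 6 peaks at chr10:41837735-41841475 held no SS peak. The largest SS cluster, of 17 peaks at chr4:146342113-146356959, held 6 WT peaks, with 5 of its peaks shared. The SS clusters of 13 peaks at chr1:90112978-90124763 and of 12 peaks at chr4:146888534-146898554 held 6 and 7 WT peaks. In each of these 3 SS clusters SS peaks covered 55.1% to 63.2% of the span and WT peaks 15.5% to 16.0%.

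Over 100 kb bins the peak numbers of both lists were close to even. A bin held a mean of 16.7 WT and 25.7 SS peaks, and the variance over bins was 1.22 and 1.13 times the mean. In the proliferating pRb lists, with means of 3.19 and 4.36 peaks per bin, that ratio was 1.17 in WT and 1.31 in SS. In the H3K27me3 lists it was 2.70 to 7.77, and in the Ezh2 lists 1.76 and 1.92. The ratio also depends on the mean, so it does not rank lists of unlike length by evenness. WT and SS peak numbers had a Spearman's rho of 0.0984 over 24020 bins, which share the mappable length of each bin. At 1 Mb it was 0.165.

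Peak numbers per bin were then compared as shares of each list, so that both lists had the same total. Of 23808 bins with at least 20 peaks over both lists, 603 (2.53%) had an SS share at least 2 times the WT share, and 288 (1.21%) had the reverse. With the SS list cut to WT length these counts were 876 (3.74%) and 849 (3.63%) of 23397 tested bins. The surplus of SS-higher bins was thus largely gone. Such bins held fewer peaks than most, a median of 38 and 40 against 43 over all tested bins, and both kinds lay on all 19 chromosomes. At 1 Mb, 3 of 2417 bins passed the same fold, and they were picked after their values were seen. The bin at chr5:95000001-96000000 had 206 WT and 122 SS peaks, a ratio of shares of 0.385. The bin at chr12:23000001-24000000 had 81 and 58 peaks (0.465), and that at chr2:175000001-176000000 had 14 and 44 (2.04). For comparison, 1 Mb bins ran from 0.812 at the 5th percentile to 1.25 at the 95th.

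By covered length, SS was the higher list in 22845 of 24020 bins (95.1%), with medians of 3.11% of the bin in WT and 5.53% in SS. In the 5 bins of largest gain, peaks of both lists were longer and lower in score than the list medians. In the bin chr1:85000001-85100000 coverage was 6.99% in WT and 28.5% in SS, with 16 and 35 peaks of median length 413 and 707 bp. The median score there was 45.76 in WT and 35.13 in SS. In chr4:145200001-145300000 coverage was 7.91% and 27.9%, with 22 and 59 peaks. In chr8:19700001-19800000 it was 12.6% and 31.5%, with 31 and 45 peaks. The bins chr8:74300001-74400000 (6.80% and 24.3%) and chr14:43900001-44000000 (7.76% and 23.7%) completed the 5. At equal list length, which leaves out the lowest-scoring SS peaks, the difference was -1.77 points in the chromosome 1 bin, -11.3 in the chr8:19700001 bin and -1.56 in the chromosome 14 bin, and under 1 point in the other 2.

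The 5 largest losses in SS lay in 2 stretches, on chromosomes 5 and 14. In chr5:95500001-95600000 coverage was 11.6% in WT and 5.22% in SS, with 36 and 16 peaks. The neighbouring bin chr5:95600001-95700000 had 6.64% and 2.69%, with 20 and 7 peaks, and chr5:94900001-95000000 had 6.37% and 2.56%, with 20 and 8. In chr14:69900001-70000000 coverage was 9.29% and 4.13%, with 46 and 22 peaks, and in chr14:70000001-70100000 it was 7.36% and 3.88%, with 34 and 20. In the 3 chromosome 5 bins the median length was 308 to 330 bp in WT and 304.5 to 361 bp in SS, also above the list medians. There WT Ezh2 peaks covered 0.100% to 0.425% and SS Ezh2 peaks 2.29% to 4.72%. Both lay below the medians over all bins, 3.24% for WT Ezh2 and 4.97% for SS Ezh2. The direction, with higher Ezh2 coverage in SS, was thus not particular to these bins. The gap was wider in them, since WT Ezh2 lay farther below its median than SS Ezh2 did. The reason for this was not tested. With the higher-scoring 50% of each list the difference was 0.00600 points in the chr5:95500001 bin and 0.139 in the chr14:69900001 bin, so the sign turned in both.

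**Figure D5:**
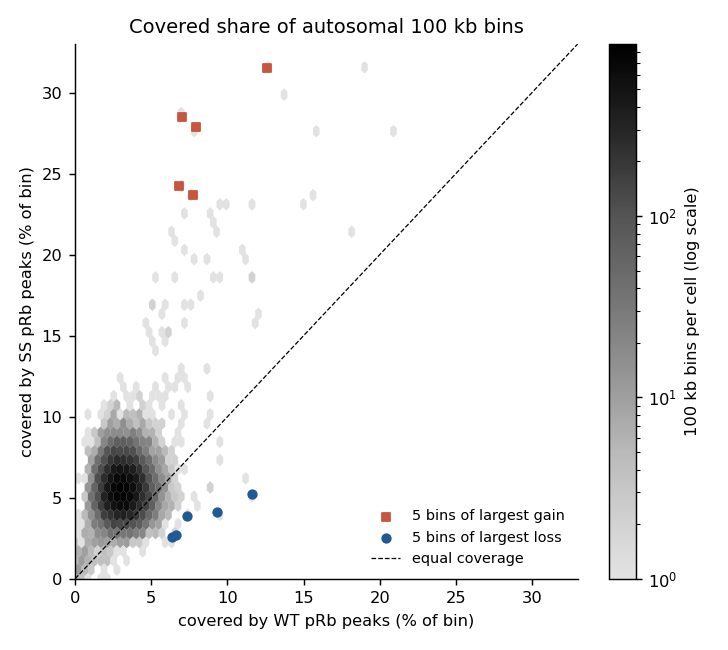
Share of each autosomal 100 kb bin covered by WT (horizontal axis, percent) and SS (vertical axis, percent) arrested pRb peaks, with grey shade for the number of bins on a log scale. Squares mark the 5 bins of largest gain (WT 6.80% to 12.6%, SS 23.7% to 31.5%), circles the 5 of largest loss, and the dashed line equal coverage.

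A small set of bins was densely covered in both genotypes. Coverage exceeded 10% in 17 bins in WT, in 107 in SS and in 15 in both. These 15 lay on chromosomes 5 (4 bins), 1 and 4 (3 each), 8 (2), and 7, 13 and 14 (1 each). The densest in WT was chr5:14900001-15000000, with 21.1% in WT and 27.8% in SS, and the densest in SS chr1:85200001-85300000, with 18.9% and 31.6%. In all 15 bins the coverage by Ezh2 peaks was above the 95th percentile of its own list in both genotypes. Proliferating pRb peaks passed that mark in 13 of the 15 in each genotype, whereas the 4 H3K27me3 lists passed it in 1 to 3. Median H3K27me3 coverage in these bins was still 11.3% in arrested WT, 8.3% in proliferating WT and 14.7% in proliferating SS. Over all bins those medians were 6.17%, 1.93% and 3.51%. In arrested SS the median was lower in these bins, 1.14% against 2.46%. The part played by repeat content and mappability in these bins was not tested.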

How the data were processed

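Peak lists of pRb in arrested WT and SS fibroblasts were compared, 1 library per group, grouped by sample title. The labels' protocols describe chromatin fixed with 2 cross-linkers and sonicated before immunoprecipitation. Bowtie2, MACS2, HOMER and bedtools are named in the submitters' processing notes, with the build mm9. Their versions, roles and settings are not given in the sources seen here. Each library has its own deposited list, with no header and a score per peak from the authors in a unit that is not stated. The lowest score was 20.03 in WT and 20 in SS. Peaks within a list did not overlap. Of the 8 other lists only positions were used. The 10 input libraries were not analysed here.

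Depth is unknown, so a deeper library and a wider occupancy cannot be told apart, and no interval or limit based on reads is given. Shared peaks overlap by at least 1 bp. Bases in common were divided by the coverage of the 24020 autosomal 100 kb bins in which any list had a peak. Centres were counted within 100 bp and at 2 to 5 kb of a centre. Bins needed at least 20 peaks and a 2-fold difference in list share. Wilson intervals are at 95%. The overlap step was tested on simulated data. Regions named are the 5 bins of largest gain and loss in coverage, the 3 peaks of highest score per class, the 3 longest shared peaks and the 3 largest clusters of each list; regions on chromosome 18 were counted but not named. Members and rules were chosen with earlier results of these data known. Because the gene table at hand is built on a different assembly, peaks were left without gene names, the prepared gene lists went unused and no sequence was read. No test across samples was made. Alternatives changed the overlap rule, list length, score, peak length, merging, chromosomes, bins and distances. Calculations ran in Python 3.11.15 with scipy 1.17.1, pandas 2.3.3 and numpy 2.4.6, and plots in matplotlib 3.10.9.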

Additional observations from a re-analysis of the deposited data

How the results depend on the processing

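No paired analysis was possible because each group has 1 library. Under every alternative run for it, SS had the larger covered length, but most alternatives moved the values. WT also had the larger shared percentage, but nearly equal numbers were shared from each side (44768 and 44770 in the main lists). The shorter list therefore has the larger percentage by construction, and at equal list length the percentages were nearly equal. Cutting the SS list to WT length makes the peak numbers equal by construction. With peaks of at least 500 bp, the ratio of SS to WT peak number was 4.13, that of covered length 4.34 and that of shared bases to even coverage 8.26, and 3.39% of WT and 0.849% of SS peaks were shared. With peaks within 1 kb merged the ratios of number and length were 1.40 and 1.94, and the shared percentages 16.0 and 11.4. Of 23728 bins tested in that setting, 380 (1.60%) had a 2-fold higher share in SS and 156 (0.657%) in WT. With the SS list cut to WT length the length ratio was 1.03, the shared percentages 6.89 and 6.88, and the base ratio 1.10. The neighbour difference was then 0.827 points, rho over bins 0.0720 and WT-higher bins 849 of 23397 (3.63%). With the higher-scoring 50% of each list the length ratio was 1.84, the shared percentages 5.10 and 3.31, and the base ratio 1.16. The neighbour difference was then 7.91 points and rho 0.112. Of 15479 bins tested, 1024 (6.62%) were SS-higher and 692 (4.47%) WT-higher. With all chromosomes the number ratio was 1.53 and the shared WT percentage 11.0. Reciprocal overlap gave 3.56% and 2.31%. A distance of 10 kb gave a neighbour difference of 2.72 points. Bins of 1 Mb gave counts of 1 and 2 of 2417 and a rho of 0.165. A minimum of 40 peaks gave 259 (1.59%) and 161 (0.990%) of 16269 bins.

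Signs turned for 6 single values: the median length of shared minus SS-only peaks under reciprocal overlap (-1 bp), the bins chr1:85000001-85100000 (-1.77 points), chr8:19700001-19800000 (-11.3) and chr14:43900001-44000000 (-1.56) at equal list length, and the bins chr5:95500001-95600000 (0.00600) and chr14:69900001-70000000 (0.139) with the higher-scoring 50%. These alternatives for single values were added after the data were seen. Of the other alternatives for single values, 25 were counted as moved and 1 was not. For the medians and the bins the main value had no interval, so any change at all counted as moved. The count therefore does not measure how stable these values are. Cutting the SS list or halving both leaves fewer peaks by construction. Score and length ran opposite ways in both lists (rho -0.371 in WT and -0.303 in SS), so cuts by score also tend to leave shorter peaks. The cause of the other shifts was not tested. With unknown depth, peak numbers and the unshared fraction cannot be separated from the sensitivity of each library.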
